A study of Mus musculus with 18 samples.

Results

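The major urinary proteins were followed as 10 genes (Mup1, Mup3, Mup7, Mup10, Mup11, Mup12, Mup14, Mup17, Mup20 and Mup21) out of 54838 genes in the RNA-seq table, chosen by their symbol. The samples were livers and liver tumours of mice with an intact miR-181ab1 microRNA cluster (WT) and of global knockout mice that lack the cluster in every tissue (GKO). There were 6 groups of 3 samples. Normal livers came from untreated mice of each genotype, and tumours and the liver tissue beside them (non-tumours) came from mice of each genotype given the liver carcinogen diethylnitrosamine (DEN) once, at 25 mg/kg, on postnatal day 12. All samples were labelled C57BL/6 and 36 weeks old, and the methods describe the mice given DEN as males. Control mice are described there as littermates that carried floxed alleles or a Cre transgene alone, without saying which of them supplied these samples. In GKO mice hepatocytes, blood cells and vessels all lacked the cluster. No source used here says which tumour came from which mouse or whether same-numbered samples shared a mouse. Between 11924989 and 20751460 reads on genes were recovered per sample. Levels are given as TPM, a share of all transcripts that is adjusted for gene length.

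Major urinary proteins are small secreted lipocalins, barrel-shaped carriers that bind pheromones and are passed from the liver through the blood into the urine. In male mice the hepatocyte is their main source, and their genes are known to respond to pulsatile growth hormone acting through STAT5, to androgens, to thyroid hormone and to glucocorticoids. MUP20, also called darcin, is known as a male pheromone that attracts females.

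All 10 genes lay on the minus strand of chromosome 4 (mm10), from Mup7 at chr4:60066469-60070475 to Mup21 at chr4:62147932-62150863. Mup20 (chr4:62050234-62054158) and Mup3 (chr4:62083476-62087342) lay closest to Mup21. Mup1, Mup10, Mup11, Mup12, Mup14 and Mup17 lay between 60498012 and 61595871. No exon of the 10 overlapped an exon of another gene. Of the 7 members with a promoter in the RefSeq table (GRCm38.p6), 3 are shown here because they stand for the divergent Mup3 and Mup21 copies and for the near-identical central copies. Each line gives the 120 bases before the RefSeq start, 5′ to 3′ on the minus strand, and the capitals mark the longest run that the 3 windows share.
Mup3, chr4:62087318-62087437: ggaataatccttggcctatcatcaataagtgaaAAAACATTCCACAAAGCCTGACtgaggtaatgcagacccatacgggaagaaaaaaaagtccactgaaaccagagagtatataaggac
Mup21, chr4:62150842-62150961: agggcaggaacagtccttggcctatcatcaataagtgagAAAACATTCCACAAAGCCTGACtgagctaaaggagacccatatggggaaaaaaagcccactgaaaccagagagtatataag
Mup11, chr4:60662396-60662515: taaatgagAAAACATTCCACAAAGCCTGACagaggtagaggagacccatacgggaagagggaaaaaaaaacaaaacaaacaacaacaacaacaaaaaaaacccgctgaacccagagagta

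The capitalised run of 22 bases was found in the 250 bases before the start of 6 of the 7 member promoters and of 10 promoters among all 32851, and all 10 belonged to Mup genes. Over the 250 bases before the start, Mup11 and Mup17 were identical at 99.6% of 226 aligned bases, Mup3 and Mup21 at 93.4% of 244, and Mup3 and Mup11 at 81.9% of 221. The growth hormone motif TTCNNNGAA, which reads the same on both strands, was in none of the 7 windows and in 7.02% of all promoters. TATAAA, searched on the gene's own strand, was in none of the 7 and in 7.59% of all, and TATATAA, searched in the same way after the windows had been seen and sharing bases with TATAAA where an A follows it, was in Mup3, Mup10, Mup17 and Mup21 and in 2.05% of all. A match or its absence describes these letters in these windows only.

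The transcripts differ in how well a read can tell them apart, as the plot of windows found in no other gene shows. Of the 100-base windows of a transcript, 97.8% of those of Mup3, 95.5% of those of Mup21 and 61.2% of those of Mup20 occurred in no other annotated gene. For the other 7 members the share was 22.5% (Mup12) to 44.3% (Mup1). Mup20 shared its windows with the pseudogene Mup-ps19 alone, at this length, and Mup3 shared with Mup21 alone. How reads that fit several genes were counted is not given in the sources used here, so single values of Mup1, Mup7, Mup10, Mup11, Mup12, Mup14 and Mup17 are uncertain, and their sum is given beside them.

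**Figure D1:**
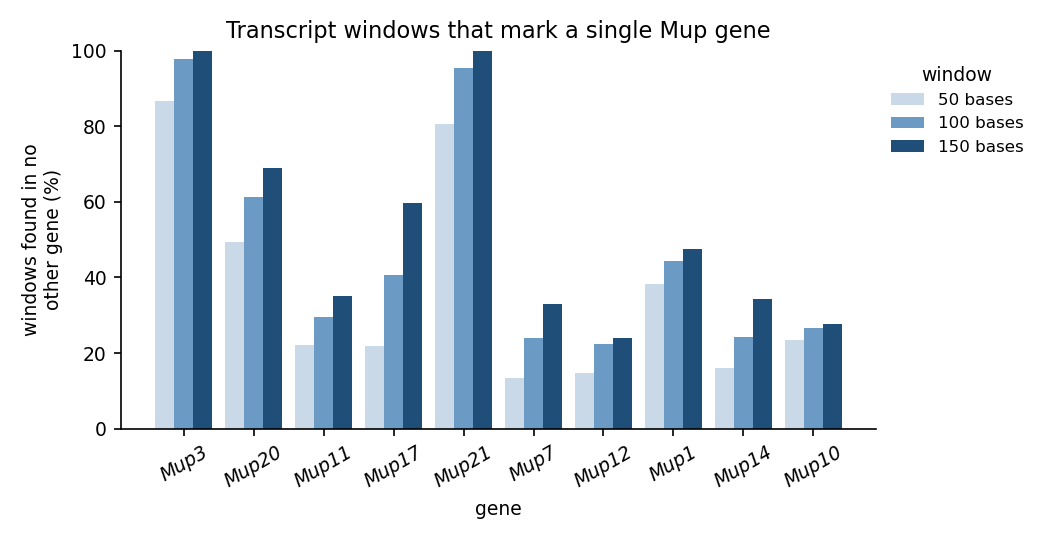
Share of the 50-, 100- and 150-base windows of each gene's annotated transcripts (y axis, percent) that occurred in no other gene, for the 10 Mup genes (x axis, highest mean level at the left). Mup3 and Mup21 were nearly or fully distinct at 100 and 150 bases, whereas Mup12 reached 24.1% at 150 bases.

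The tissue labels were checked first. Albumin (Alb), the main plasma protein made by hepatocytes, was at 22860 TPM or more in all 18 samples, and the 10 hepatocyte markers summed to at least 76030 TPM, so each sample held hepatocyte or hepatocyte-derived RNA. One library stood apart from its group. WT non-tumour 2 correlated with the other WT non-tumours at r = 0.929 and 0.933 (Pearson, log2 values over genes), against 0.970 between those. Its proliferation markers summed to 85.4 TPM against 24.6 and 24.9 in WT non-tumours 1 and 3, Mki67, a marker of cycling cells, was at 4.09 TPM against 0.266 and 0.178, and Dcn, a fibroblast proteoglycan, was at 6.23 TPM against 35.7 and 30.6. Its results are given with and without it. WT tumours 1 and 2 were the most alike pair of the WT tumours (r = 0.982, against 0.919 and 0.921 with WT tumour 3).

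Together the 10 genes were among the most abundant transcripts of the livers and lower in tumours than in non-tumours, by 9.11-fold in WT and 3.98-fold in GKO. Their summed level was 24325, 28669 and 19379 TPM in the 3 WT normal livers and 31739, 25104 and 25323 TPM in the 3 GKO normal livers. In the WT non-tumours it was 18758, 16647 and 23976 TPM, and in the GKO non-tumours 30367, 20346 and 44777 TPM. In the WT tumours it was 2448, 2319 and 1755 TPM. In the GKO tumours it was 2472, 9899 and 11649 TPM. All 12 livers without tumour lay above all 6 tumours. The sum made up 2.41% ± 0.465 of all transcripts in WT normal livers, 2.74% ± 0.377 in GKO normal livers, 0.217% ± 0.0369 in WT tumours and 0.801% ± 0.487 in GKO tumours (mean ± SD, n = 3 each).

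**Figure D2:**
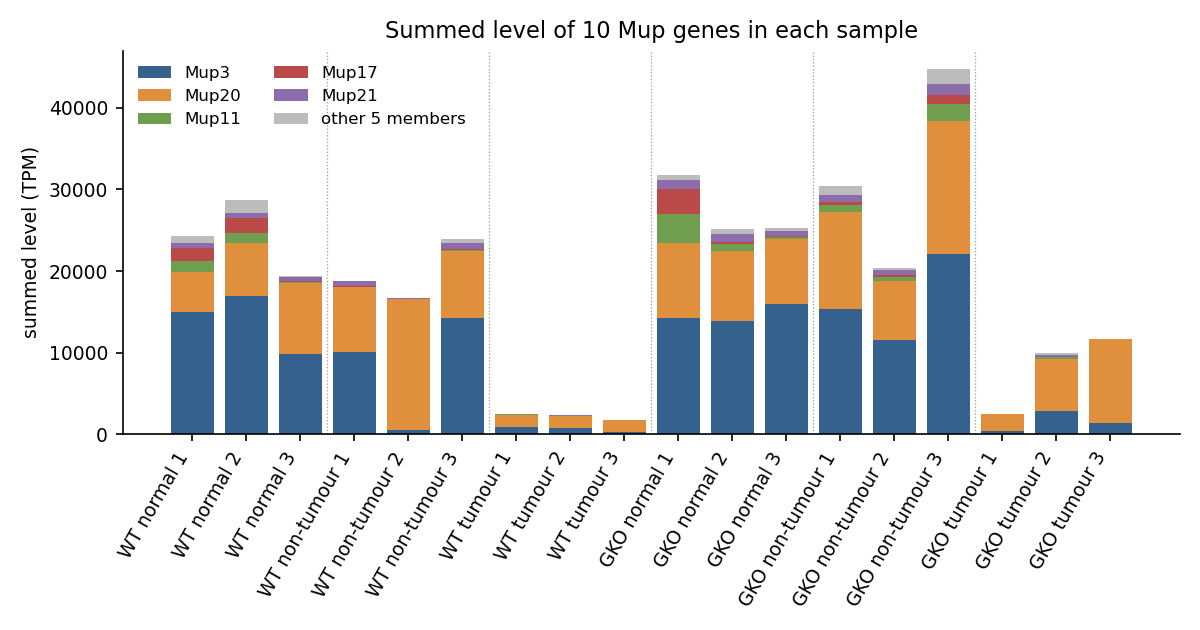
Summed TPM of the 10 Mup genes in each of the 18 samples (bars from 0, y axis linear), split by gene. The 12 livers without tumour reached 16647 to 44777 TPM and the 6 tumours 1755 to 11649 TPM, and in WT non-tumour 2 nearly the whole bar is Mup20.

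Mup3 and Mup20 carried most of this level. Over all 18 samples the mean was 9218 TPM for Mup3 and 7595 TPM for Mup20, followed by Mup11 (630.1 TPM), Mup17 (503 TPM), Mup21 (495 TPM), Mup7 (359 TPM), Mup12 (66.2 TPM), Mup1 (10.2 TPM), Mup14 (8.63 TPM) and Mup10 (0.376 TPM). Mup11, Mup17, Mup21 and Mup7 could not be ordered beyond their spread, nor could Mup1 and Mup14. Mup10 was under 1 TPM in every library.

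**Figure D3:**
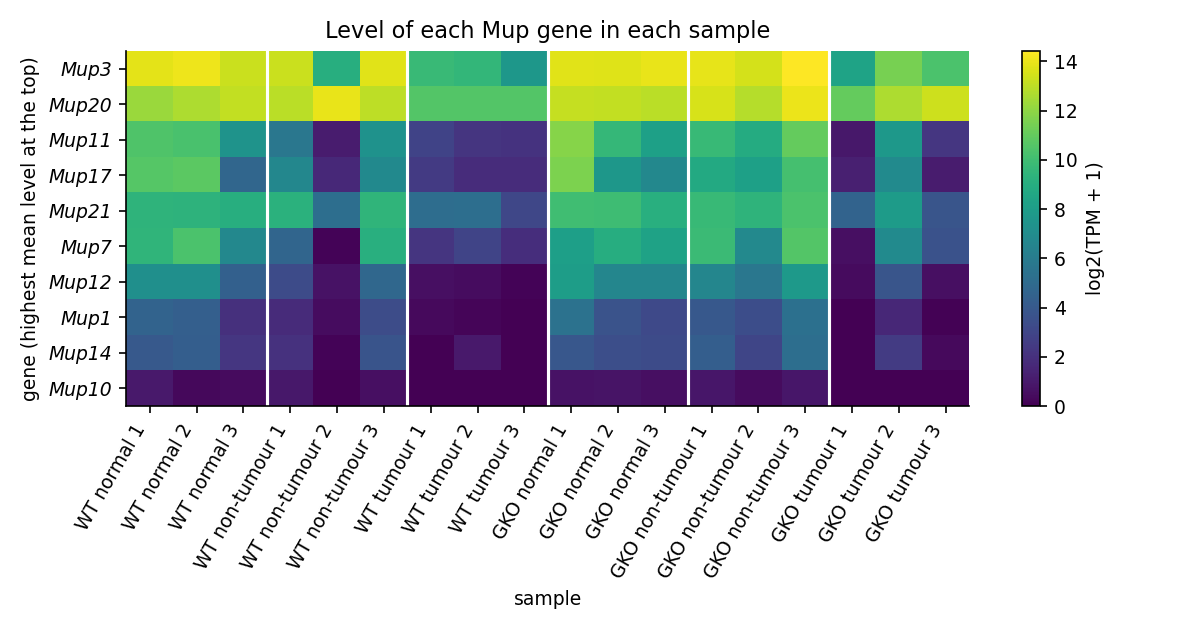
Level of each Mup gene (rows, highest mean at the top) in each sample (columns, white lines between groups), as log2(TPM + 1) on a colour scale from 0. Mup3 and the genes listed under Mup20 are darker (lower) in the tumours, least so in GKO tumour 2, and in WT non-tumour 2, where Mup20 is bright.

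Untreated livers differed little in their total and more in most of the central copies. Over the 6 normal livers of both genotypes, Mup3 ranged from 9821 to 16957 TPM (coefficient of variation 17.3%), Mup20 from 4863 to 9124 TPM (21.5%) and Mup21 from 526 to 1044 TPM (30.1%). For the 6135 genes that averaged 5 TPM or more in these livers, the median coefficient of variation was 18.9% and the 95th percentile 48.6%. Mup11 ranged from 168 to 3582 TPM (99.9%) and Mup17 from 25.7 to 3132 TPM (110%). The coefficient of variation was 80.8% for Mup7, 77.5% for Mup1 and 61.7% for Mup12, whereas those of Mup10 (45.7%) and Mup14 (44.7%) lay under that 95th percentile. The 7 members other than Mup3, Mup20 and Mup21 summed to 3842, 4572 and 326 TPM in the WT normal livers and to 7313, 1613 and 827 TPM in the GKO normal livers. The wide range was found within each genotype, and these are the members whose reads are the hardest to assign.

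Tumours were compared with non-tumour tissue within each genotype to ask which liver transcripts the tumours had lost or gained. In WT mice, Mup20 was at 7884, 16087 and 8204 TPM in the non-tumours and at 1534, 1509 and 1538 TPM in the tumours. The groups did not overlap, and the 3 tumours were nearly equal. Mup20 fell by 2.73 on the log2 scale (SE 0.33, adjusted p = 0.00821, limma). It was the 1 of the 9 members tested that passed, where 2.07% of 14003 genes were called lower and 4.23% were called in either direction.

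Mup3 was at 10095, 520 and 14199 TPM in the WT non-tumours and at 863, 759 and 201 TPM in the WT tumours, and the low value in WT non-tumour 2 lay among the tumours (log2 difference -3.05, SE 1.28, adjusted p = 0.249). Mup21 was at 585, 36.0 and 707 TPM in the non-tumours and at 35.0, 36.9 and 7.53 TPM in the tumours (log2 difference -3.46, SE 1.19, adjusted p = 0.178). Mup1, Mup12 and Mup20 were the 3 of 9 tested members whose tumours all lay under all non-tumours, against 13.9% of all genes. All 9 tested members had a lower mean in tumours, and their median log2 difference was -2.54, against -0.02 over all genes tested.

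Without WT non-tumour 2, 7 of 9 members passed in this comparison (Mup1, Mup3, Mup11, Mup12, Mup17, Mup20 and Mup21), with Mup3 at -4.55 (adjusted p = 0.0252) and Mup17 at -4.70 (adjusted p = 0.00312), where 440 of 14040 genes were called lower. Without WT tumour 2, where 63 of 13940 genes were called lower, none passed and Mup20 had an adjusted p of 0.0503.

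In GKO mice most members other than Mup20 passed and Mup20 did not. Mup3 was at 15347, 11556 and 22121 TPM in the GKO non-tumours and at 327, 2788 and 1325 TPM in the GKO tumours, with no overlap, and fell by 3.89 on the log2 scale (SE 0.72, adjusted p = 0.0196). Mup21 was at 840, 658 and 1321 TPM in the non-tumours and at 23.0, 245 and 13.0 TPM in the tumours, and fell by 4.37 (SE 0.97, adjusted p = 0.0330). Mup11 was at 854, 463 and 2101 TPM in the non-tumours and at 0.893, 209 and 3.87 TPM in the tumours, and fell by 6.24 (SE 1.60, adjusted p = 0.0469). GKO tumour 2 had the highest level of Mup3, Mup21 and Mup11 among the GKO tumours.

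Mup1, Mup3, Mup11, Mup12, Mup14, Mup17 and Mup21 passed, 7 of 9 tested and all lower, where 3.97% of 14092 genes were called lower and 11.7% in either direction. The same 7 had no tumour above any non-tumour, against 12.7% of all genes. The members' median log2 difference was -4.37 against 0.20 over all genes tested. With 1 sample left out, the number of members called was 0 without GKO tumour 3, where 252 of 13987 genes were called lower. It was 1 without GKO non-tumour 3 (82 of 14126 genes lower) and 8 without GKO tumour 2 (478 of 14051). It was 3 without GKO non-tumour 1 (403 of 14069), GKO non-tumour 2 (280 of 14113) or GKO tumour 1 (319 of 14063). The differences of all 9 members stayed negative. The number was also 1 without the filter on low genes (208 of 26005 genes lower) and 4 with same-numbered samples as a block (463 of 14092). With a pseudocount of 0.1 it was 5 (512 of 14092), and with quantile normalization 6 (884 of 14092). With all samples scaled to the same median it was 7, while the calls over all genes moved from 1092 higher and 560 lower to 777 higher and 990 lower.

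Mup20 was at 11859, 7200 and 16274 TPM in the GKO non-tumours and at 2119, 6399 and 10294 TPM in the GKO tumours. The groups overlapped, and the log2 difference was -1.10 (SE 0.59, adjusted p = 0.236). Mup7 was at 906, 111 and 1509 TPM in the non-tumours and at 0.524, 120 and 11.4 TPM in the tumours, where GKO tumour 2 lay above GKO non-tumour 2 (adjusted p = 0.0696). Mup10 was listed at 0 in all 6 tumours and was too low to be tested. It was also at 0 in WT non-tumour 2, so the groups overlapped in WT. Its mean was 0.463 TPM in WT and 0.665 TPM in GKO non-tumours, at least 1.81-fold and 2.63-fold above the level that 3 reads per tumour library would give.

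**Figure D4:**
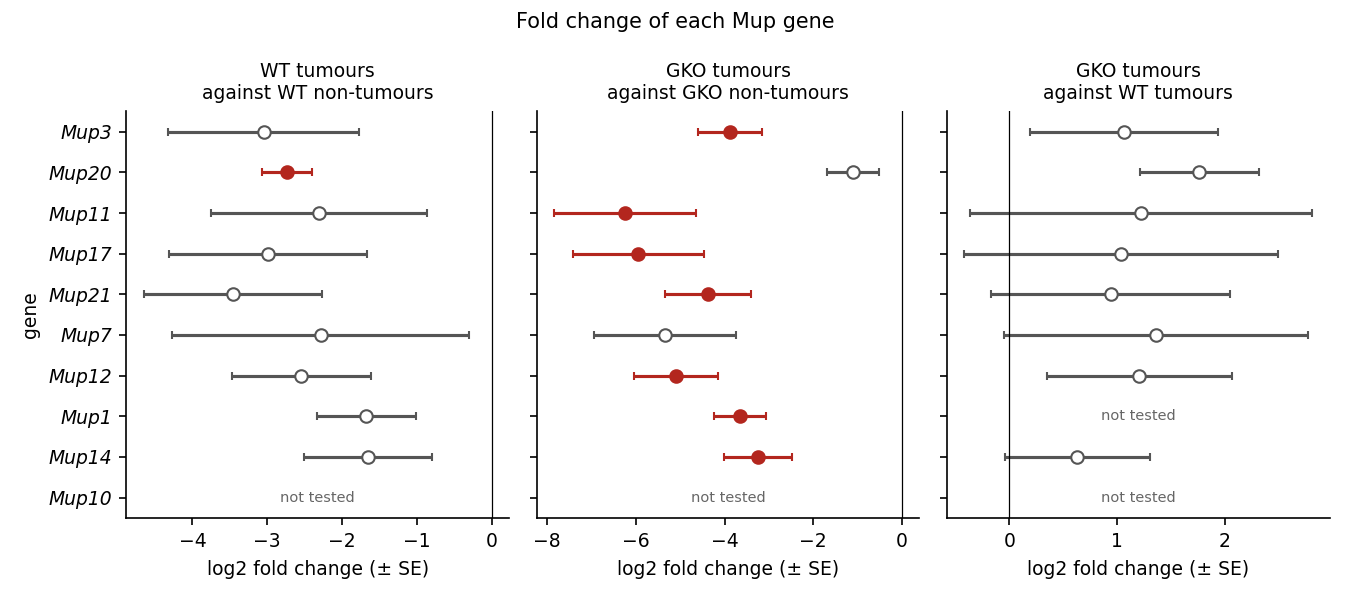
Log2 fold change ± SE of each Mup gene (rows) from limma on log2(TPM + 1), with 3 samples per group, in WT tumours against WT non-tumours, GKO tumours against GKO non-tumours and GKO tumours against WT tumours. Filled red points had an adjusted p under 0.05, which Mup20 reached in WT and 7 other genes reached in GKO.

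Tumours and other livers also differed in which Mup gene led. Mup20 exceeded Mup3 in all 6 tumours, by 1.78-fold, 1.99-fold and 7.66-fold in WT and by 6.47-fold, 2.30-fold and 7.77-fold in GKO. In 11 of the 12 livers without tumour Mup3 exceeded Mup20, and the ratio of Mup20 to Mup3 was 0.325 to 0.886. The exception was WT non-tumour 2, with a ratio of 30.96. Mup20 made up 71.8% ± 13.8 of the summed level in WT tumours, 79.6% ± 13.0 in GKO tumours, 31.6% ± 2.93 in GKO normal livers and 36.9% ± 1.90 in GKO non-tumours (mean ± SD, n = 3 each). For WT the share was 29.2% ± 13.7 in normal livers and 57.6% ± 34.0 in non-tumours, which ranged from 34.2% to 96.6% and overlapped the tumours.

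**Figure D5:**
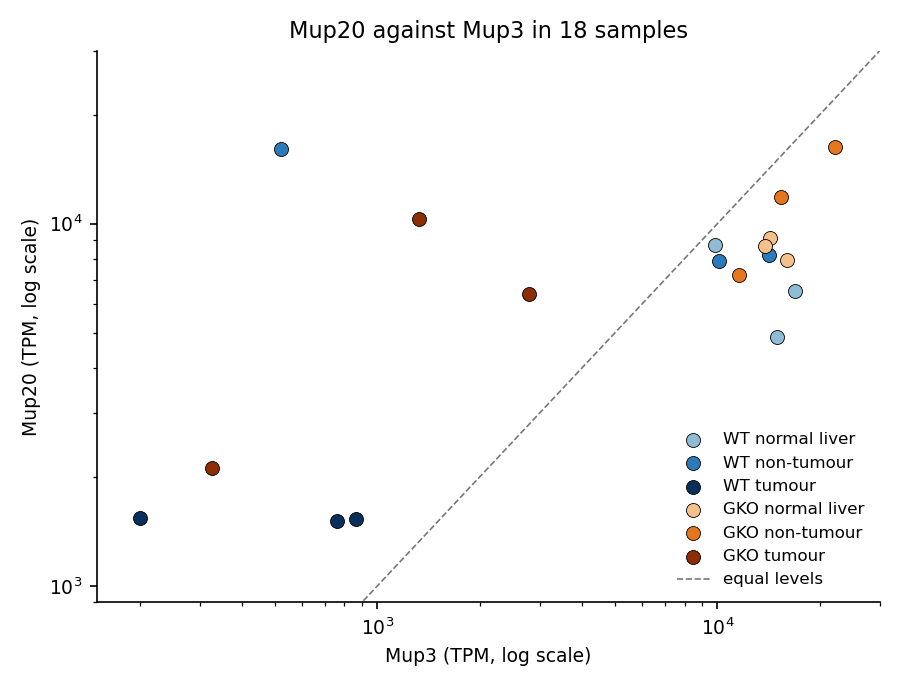
Mup20 (y axis) against Mup3 (x axis) in TPM, both on log scales, 1 point per sample, coloured by group, with a dashed line at equal levels. The 6 tumours and WT non-tumour 2 lie above the line and the other 11 livers lie under it.

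Over the 18 samples, the levels of the 8 members other than Mup20 and Mup10 ran together (Pearson's r of log2 values 0.881 to 0.982 over 28 pairs). Mup20 followed them less closely (0.485 to 0.636). Over the 12 livers without tumour, r between Mup20 and each of the 8 was -0.444 to -0.188, and without WT non-tumour 2, a choice made after seeing the data, it was -0.02 to 0.664, so the strongly negative values rested on that library. The points share libraries, and the members other than Mup3, Mup20 and Mup21 share sequence, so these values are descriptions.

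GKO tumours were compared with WT tumours to ask what the loss of miR-181ab1 changed in the tumours themselves. The summed Mup level averaged 3.68-fold higher in GKO tumours, with GKO tumour 1, at 2472 TPM, close to WT tumour 1, at 2448 TPM. Mup20 was higher in all 3 GKO tumours than in any WT tumour (log2 difference 1.76, SE 0.55, unadjusted p = 0.0149, adjusted p = 0.465 by limma). None of the 8 members tested passed with limma, where 0.0215% of 13964 genes were called. Of the members 1 had an unadjusted p under 0.05, as did 8.87% of all genes. Limma with voom weights on recovered reads called no member and no other gene. Mup20 was the 1 of 8 tested members whose GKO tumours all lay higher, against 9.88% of all genes. The median log2 difference was 1.14 for the members and 0.09 for all genes. Without GKO tumour 2 the median of the 6 members that could then be tested was -0.27.

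The difference between the tumour effects of the genotypes was also fitted as an interaction. For Mup20 the fall in tumours was smaller in GKO than in WT by 1.62 on the log2 scale (SE 0.74, unadjusted p = 0.0496, adjusted p = 0.475). For Mup3 the interaction was -0.84 (SE 1.62, adjusted p = 0.845). None of 9 members passed with limma, where 0.0142% of 14106 genes were called. An unadjusted p under 0.05 was found for 1 member and for 10.5% of all genes, and voom weights called no member. So Mup20's call in WT and its lack of a call in GKO were not shown to be a difference between genotypes. The same holds for the 7 members called in GKO.

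Non-tumour tissue was compared between genotypes to ask whether the DEN-treated liver differed beside the tumours. Mup11 was at 52.1, 1.17 and 161 TPM in the WT non-tumours and at 854, 463 and 2101 TPM in the GKO non-tumours, with no overlap (log2 difference 5.15, SE 1.504, unadjusted p = 0.0112, adjusted p = 0.643). Mup1, Mup12 and Mup17 did not overlap either and were also higher in GKO, so that 4 of 10 members lay wholly higher, against 3.88% of all genes. All 4 are central copies whose reads are hard to assign to 1 gene, so they may not be 4 separate results. Mup3 and Mup21, whose transcripts are more distinct, overlapped. Mup20 overlapped, at a log2 difference of 0.14 (SE 0.41, adjusted p = 0.904). None of the 10 passed with limma, where 0% of 13768 genes were called. The 4 non-overlapping members had an unadjusted p under 0.05, as did 5.8% of all genes, and voom weights called none. The members' median log2 difference was 2.29 (1.47 without WT non-tumour 2), against -0.15 over all genes.

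In untreated livers all 10 members overlapped between genotypes. None had an unadjusted p under 0.05 in limma, none was called with voom weights, and 0% of 13099 genes were called. Mup20 was at 4863, 6503 and 8706 TPM in WT and at 9124, 8684 and 7930 TPM in GKO, and Mup3 at 14956, 16957 and 9821 TPM in WT and at 14258, 13827 and 16008 TPM in GKO. The log2 difference of Mup20 was 0.40 (SE 0.24) and that of Mup3 was 0.11 (SE 0.24).

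Non-tumour tissue was also set against untreated liver of the same genotype, which shares its control samples with the comparisons above. In WT, Mup11 was lower in all 3 non-tumours than in any normal liver, which held 1394, 1253 and 168 TPM. It was the 1 of 9 tested members that lay wholly lower, against 2.9% of all genes (log2 difference -4.65, SE 1.59, adjusted p = 0.161). None of 9 members passed with limma, where 0.00744% of 13440 genes were called, and voom weights called no member. An unadjusted p under 0.05 was found for 2 members and for 24.4% of all genes. All genes had a median log2 difference of 0.32 here and the members -1.77, or -0.85 without WT non-tumour 2. In GKO none of 10 members passed with either method, none had an unadjusted p under 0.05, and 0% of 13530 genes were called. The members' median there was 0.13 and that of all genes 0.08.

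The table held 38 further Mup rows, 11 protein-coding genes and 27 pseudogenes. The 11 protein-coding genes summed to 218, 401 and 11.47 TPM in the WT normal livers and to 1.54, 1.88 and 0.597 TPM in the WT tumours. Mup15 was the most abundant of them, at 341 TPM in WT normal liver 2. In GKO tumours Mup6, Mup8, Mup18 and Mup19 fell (adjusted p = 0.0412, 0.02003, 0.0418 and 0.0390, limma), as did the pseudogenes Mup-ps7, Mup-ps16 and Mup-ps20. In WT tumours Mup2, Mup-ps4 and Mup-ps19 fell. Over all genes, 3.97% were called lower in GKO and 2.07% in WT. Several of these rows were low even in non-tumours. Mup6, Mup8, Mup-ps7 and Mup-ps20 averaged 1.51, 3.74, 2.39 and 3.86 TPM in GKO non-tumours. Mup2 and Mup-ps4 averaged 2.18 and 1.35 TPM in WT non-tumours. Mup-ps19, which shares 38.8% of the 100-base windows of Mup20, was at 43.6, 89.4 and 49.3 TPM in the WT non-tumours and at 6.99, 10.6 and 9.61 TPM in the WT tumours, and its highest non-tumour value was in the library with the highest Mup20. Mup-ps20 was at 61.4 TPM in WT tumour 3 and at 10.1 TPM or less in the other 17 libraries.

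Few other secreted products of hepatocytes were called lower in tumours. Over all genes, 302 of 14003 were called higher and 290 lower in WT tumours. In GKO tumours 1092 of 14092 were called higher and 560 lower. Alb was 2.67-fold higher in WT tumours than in WT non-tumours (adjusted p = 0.0358) and 3.997-fold higher in GKO tumours than in GKO non-tumours (adjusted p = 0.00861), although no hepatocyte marker was called higher in WT without WT non-tumour 2. Of the same 10 markers Cyp2e1, an ethanol-metabolizing enzyme, was at 6200, 8049 and 8350 TPM in WT non-tumours and at 259, 324 and 134 TPM in WT tumours, and fell by 5.05 on the log2 scale (adjusted p = 0.00149). In GKO it was at 9357, 3056 and 6045 TPM in non-tumours and at 18.8, 1446 and 405 TPM in tumours (adjusted p = 0.0733). Among 20 abundant secreted liver proteins, 3 rose and none fell in WT tumours, 2 rose without WT non-tumour 2, and 6 rose and 1, Apoa2, a protein of high-density lipoprotein, fell in GKO tumours, or 3 and 1 without GKO tumour 2. Per 100 TPM of Alb, the summed Mup level was 45.6, 43.8 and 61.0 TPM in the WT non-tumours and 1.94, 2.17 and 2.10 TPM in the WT tumours. It was 127, 58.7 and 176 TPM in the GKO non-tumours and 2.43, 10.5 and 8.33 TPM in the GKO tumours. Since Alb was itself higher in tumours, this ratio joins the rise of Alb to the fall of the Mup genes. In bulk tissue, fewer cells that make Mup transcripts and less Mup RNA per cell cannot be told apart. Of 10 other lipocalins, Apom, a carrier of sphingosine 1-phosphate, rose in both genotypes' tumours, by 3.22 and 3.28 on the log2 scale, and Orm3, an acute-phase carrier, fell in both. In GKO tumours Lcn2, an iron-siderophore carrier, also rose and Orm1, another acute-phase carrier, also fell.

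Of 14 genes of growth hormone signalling, 1 fell in each genotype's tumours and none rose. Over all genes, 2.07% were called lower in WT tumours and 3.97% in GKO tumours. Igf1, the hormone that the liver releases on growth hormone stimulation, was at 107, 63.2 and 115 TPM in WT non-tumours and at 3.22, 3.15 and 21.2 TPM in WT tumours (log2 difference -3.67, adjusted p = 0.0330). It was at 146, 176 and 188 TPM in GKO non-tumours and at 29.4, 32.9 and 86.0 TPM in GKO tumours (-1.92, adjusted p = 0.0290), a call that was lost without GKO tumour 2. The receptor Ghr was lower in all tumours than in any non-tumour of the same genotype, without passing (-1.45, adjusted p = 0.0678 in WT, and -1.01, adjusted p = 0.0545 in GKO). The kinase Jak2, Stat5a, Stat5b, the feedback inhibitors Socs2 and Cish, and the repressor Bcl6 did not pass in either genotype, and Igfals, which carries IGF1 in blood, had adjusted p-values of 0.193 and 0.155.

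Among the nuclear regulators, Zhx2, a factor known from liver gene regulation, had adjusted p-values of 0.774 in WT tumours and 0.129 in GKO tumours by limma. Hnf4a and Cebpa, which maintain hepatocyte gene expression, and Nr3c1, the glucocorticoid receptor, did not pass in either genotype.

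Male-biased liver genes are known to follow the same hormones in mice. In GKO tumours 9 of 16 fell and none rose, with a median log2 difference of -2.61 against 0.20 over all genes. Over all genes, 3.97% were called lower in GKO tumours and 2.07% in WT tumours. Elovl3, a fatty acid elongase, was at 127, 400 and 151 TPM in GKO non-tumours and at 0.435, 27.01 and 1.88 TPM in GKO tumours. In WT tumours 2 of 15 tested fell (5 of 16 without WT non-tumour 2, tried after seeing the data) and Serpina12, which encodes the adipokine vaspin, rose to 390.5, 385 and 392 TPM from 5.01, 3.52 and 13.1 TPM. WT non-tumour 2 had 4.26 TPM of Elovl3, 2.46 TPM of the transporter Slco1a1 and 12.0 TPM of Cyp4a12a, against 90.6 TPM, 19.3 TPM and 164 TPM or more in the other WT non-tumours, and 69.2 TPM of Cyp4a12b, more than either. Of 17 female-biased genes, Cyp2a4, a steroid hydroxylase, rose in both genotypes' tumours, by 6.84 and 6.99 on the log2 scale. Cyp17a1 also rose and Acot3 fell in WT, and Cyp2b9 rose in GKO, with 10 genes of the list tested in WT and 12 in GKO. Without WT non-tumour 2, 1 rather than 2 genes of the list rose in WT. Over all genes, 302 of 14003 were called higher in WT tumours and 1092 of 14092 in GKO tumours.

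Markers of other cells moved with the Mup genes as well. In GKO tumours, where 7 members fell, 9 of 10 proliferation markers rose. There 1092 of 14092 genes were called higher and 560 lower. The sum of the proliferation markers was 57.1, 47.9 and 106 TPM against 23.4, 11.7 and 22.1 TPM in GKO non-tumours. Pcna was the most abundant of them. Of 10 fibroblast and stellate cell markers 5 rose and Dcn fell. The list summed to 131, 197 and 104 TPM, led by Col1a1 or Acta2, against 85.8, 66.9 and 58.0 TPM, led by Dcn. Of 10 endothelial markers, 2 rose (sum 109, 161 and 149 TPM against 138, 121 and 119 TPM, led by Eng, Cdh5 or Clec4g). Of 10 macrophage markers, Marco and Timd4 fell (sum 216, 388 and 168 TPM against 1102, 239 and 447 TPM, led by C1qa), as did Cd79b among the T and B cell markers (sum 8.78, 12.9 and 9.36 TPM against 23.6, 31.1 and 16.1 TPM, led by Cd79a or Nkg7). Without GKO tumour 2, 7 proliferation markers rose and 4 macrophage markers fell. No marker of these 5 lists was at 0 in a GKO tumour. None of the 6 cholangiocyte markers tested, of 8, passed in limma. Of them 3 had an unadjusted p under 0.05, as did 31.7% of all genes. The list of 8 summed to 49.0, 971 and 565 TPM in the GKO tumours. Spp1 was at 34.0, 934 and 536 TPM there and Cftr at 0 in 2 of the 3. The tumours with high Spp1 were those with high Mup20. In WT tumours 1 and 2, proliferation markers summed to 191 and 167 TPM, and in WT tumour 3 to 29.4 TPM, while Mup20 was nearly equal in all 3. In WT tumours 7 of 10 fibroblast and stellate cell markers had an unadjusted p under 0.05 by limma, as did 19.9% of all genes. The median log2 difference of these 10 markers in WT tumours was 0.27. There no endothelial, macrophage, T and B cell, cholangiocyte or proliferation marker passed with limma: at an unadjusted p under 0.05 there were 4 endothelial, 2 cholangiocyte and 1 proliferation marker, and no macrophage or T and B cell marker. Rgs5, a marker of vessel-associated cells, was the 1 fibroblast list gene that fell. Without WT non-tumour 2, 4 macrophage markers fell there, 1 fibroblast list gene rose and 2 fell, and 1 cholangiocyte marker rose. The part of the other cells in the fall of the Mup genes was not tested.

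The 10 genes whose level across the 18 samples was most like the summed Mup level, among those averaging 5 TPM or more, were Cyp4a12b (r = 0.968), Cyp4a10 (r = 0.964), 1700080G11Rik (r = 0.955), Aadat, Acot1, Npr2, Acot4, Slc22a5, Prlr and Gm21320 (r = 0.948 to 0.941). Cyp4a12b and Cyp4a10 are fatty acid hydroxylases, Acot1 and Acot4 are acyl-CoA thioesterases, Npr2 is a natriuretic peptide receptor and Prlr is the prolactin receptor. For Mup20 alone the list was led by Ndrg2 (r = 0.903) and Rnf186 (r = 0.899), and Cyp4a12b, Cyp4a10 and Acot1 were on both lists. With Spearman's rho 3 of the 10 stayed (Npr2, Cyp4a10 and Aadat), and over the 12 livers without tumour 1 stayed (Npr2, r = 0.839), so the order rested mainly on the step between tumours and other livers.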

How the data were processed

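The authors deposited TPM values. The submitters' processing notes name STAR 2.7.3a, featureCounts 2.0.0 (Subread) and mm10. The annotation, the use of strand and the treatment of multi-mapping reads are not given in the sources used here. Genes were matched by identifier to GENCODE mouse release 21 (54809 of 54838), and TPM times exonic length was a whole number of reads (tolerance 0.02) for at least 97.95% of low values (up to 30 reads) in each sample. These reads served for depth and for 1 alternative.

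Groups follow the labelled genotype and tissue. Log2(TPM + 1) of all genes that averaged 0.5 TPM or more over the compared samples was fitted with limma 3.58.1 in R 4.3.3 (lmFit, eBayes with trend), 2-sided, with Benjamini-Hochberg adjustment over all genes tested and a threshold of 0.05. A fold change on this scale understates that of low genes. The sum of the 10 members was described without a test. The study's text gives 3 mice per group for tumour and non-tumour mRNA levels, without naming these libraries. Where samples were not separate animals, p-values measure only the spread between samples. Fits were checked on simulated data with 200 changed genes. Python 3.11.15, numpy 2.4.6, pandas 2.3.3, Biopython 1.88 and matplotlib 3.10.9 were used for the rest.

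The members and gene lists were chosen with earlier results of these data known. Named genes were the 10 members, other Mup rows, genes from the lists that were called in tumours or had the highest level, growth hormone signalling genes, and the 10 genes most like the summed level. Further list genes were named as examples after their values were seen. Promoters came from RefSeq, with 250 bases before each start searched, and transcript windows from GENCODE. Alternatives covered pseudocount, filter, scaling, samples in the fit, replicate block and each sample left out. Same-numbered samples correlated over 0.1 in all 3 pairs (0.101, 0.120 and 0.197) only for GKO against WT tumours, where the replicate block called no member either. Some genes of the lists are not reported here.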

Additional observations from a re-analysis of the deposited data

How the results depend on the processing

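The number of members called changed in the 2 comparisons of tumours with non-tumours and stayed at 0 in the other 6 under every alternative run, including each sample left out. For WT tumours it was 1 as reported, 0 without the filter, 2 with all 18 samples in the fit, and 0 to 7 with a sample left out. For GKO tumours it was 7 as reported, 1 without the filter, 4 with the replicate block and 0 to 8 with a sample left out. Without the filter 25219 and 26005 genes entered the adjustment, of which 139 and 208 were called lower, against 290 and 560 as reported. With a sample left out, 63 to 623 genes were called lower in WT tumours and 82 to 478 in GKO tumours. With all 18 samples in the fit, 818 were called lower in WT tumours. The block left the call of Mup20 in WT and all counts in the other comparisons as they were. The log2 ratio of summed Mup TPM moved by more than the spread between replicates only for WT non-tumours against WT normal livers, where it was -0.29 as reported, -0.65 with median scaling and 0.12 with quantile normalization, and its sign is therefore not settled. With a sample left out it was -3.30 to -3.03 for WT tumours, -2.36 to -1.56 for GKO tumours against their non-tumours, and 1.51 to 2.31 for GKO against WT tumours. Without GKO tumour 2, the differences of Mup7 (-0.24), Mup11 (-0.81), Mup17 (-0.86) and Mup21 (-0.31) between GKO and WT tumours turned negative. With a sample left out these ranged from -0.24 to 2.92, -0.81 to 2.58, -0.86 to 2.02 and -0.31 to 1.76. With all 18 samples in one fit, 107 genes were called between GKO and WT tumours and 1649 between WT tumours and WT non-tumours. The causes were not tested. Counts of list genes without WT non-tumour 2 or GKO tumour 2 were added after seeing the data. Mup10 averaged under 0.5 TPM, the limit of the filter, in both comparisons of tumours with non-tumours, and was tested there only without the filter.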

Other observations

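Ptgds, the lipocalin-type prostaglandin synthase, was at 237 TPM in WT non-tumour 2 and at 2.48 TPM or less in the other 17 libraries. It was chosen after its values were seen, in the library that held the highest share of Mup20. Lcn2, another lipocalin and an acute-phase protein, was at 869, 906 and 971 TPM in WT tumours and at 209, 176 and 168 TPM in GKO tumours, and was the 1 list gene that passed between these groups (log2 difference -2.31, SE 0.20, adjusted p = 0.0434, limma), opposite in sign to the difference of Mup20. The call did not hold with the replicate block, voom weights, median scaling, a pseudocount of 0.1 or no filter, under each of which 0 genes were called between these groups, nor without WT tumour 1, WT tumour 2 or GKO tumour 3.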
